A study of Homo sapiens with 6 samples.

Results

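Clade B serpins are the intracellular branch of the serpin family, and 10 of their genes (SERPINB1, SERPINB2, SERPINB3, SERPINB4, SERPINB5, SERPINB6, SERPINB7, SERPINB8, SERPINB9 and SERPINB13) were followed here in bladder cancer cells with and without a knockdown of LNMAT1. They were taken by symbol, and all 10 were found among the 50868 genes with values. The other 3 clade B genes, SERPINB10, SERPINB11 and SERPINB12, were listed at no more than 0.153 FPKM (fragments scaled to gene length and library depth) in any library. LNMAT1 is a long noncoding RNA that the study examined for its part in lymph node metastasis of bladder cancer. The cells were UM-UC-3 and 5637, both established lines from human bladder cancer, that carried a lentiviral hairpin after selection with puromycin. The hairpin was either a negative control (sh-NC) or directed at LNMAT1, in 2 versions named sh-LNMAT1#1 and sh-LNMAT1#2. Every combination of line and hairpin gave a single library, 6 in all, so p-values below measure the spread between these libraries alone.

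A serpin traps its target protease by offering a reactive loop as bait and then changing shape around the cut, which destroys both molecules as working proteins. Most clade B members lack a classical secretion signal and act inside the cell, where they guard it against its own or incoming serine and cysteine proteases. In stratified squamous epithelium several of them are abundant and are known as markers of keratinocytes and of squamous carcinoma. Their genes sit in a cluster on the long arm of chromosome 18 and a smaller one on the short arm of chromosome 6.

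The libraries were first compared with one another. LINC01296, the symbol under which LNMAT1 is listed, was 14.2 FPKM with the control hairpin and 6.20 and 6.70 FPKM with the first and second hairpin in UM-UC-3, and for 5637 the values in that order were 11.7, 4.70 and 2.14 FPKM. Each hairpin library was below its labelled control. The library labelled 5637 sh-NC did not resemble the other 5637 libraries. Over the 10 serpins, its log2(FPKM + 0.5) values differed from those of UM-UC-3 sh-LNMAT1#1 by 0.235 (root mean square), and from those of the 5637 sh-LNMAT1 libraries by 2.92 and 3.46. Over all genes averaging 1 FPKM or more in the pair, 1.17% differed at least 2-fold between it and UM-UC-3 sh-LNMAT1#1. The summed level of the 10 epithelial marker genes was 744 and 982 FPKM in the 5637 sh-LNMAT1 libraries, 26.9 FPKM in the labelled 5637 control and 21.4 to 30.9 FPKM in UM-UC-3. A change against that control in 5637 and a difference between lines therefore cannot be told apart, and each 5637 value that rests on it is named as such. The 8 leukocyte markers summed to at most 0.961 FPKM and the 4 endothelial markers to at most 0.303 FPKM in every library. Depth, read from genes with a single exon, was 19375000 to 24707000 fragments.

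The promoters are shown first, because SERPINB3 and SERPINB4 are near-copies and because genes of 1 cluster stood high and low in the same libraries. RefSeq (GRCh38.p14) gave 15 start sites for the 10 genes, and the 250 bases before each start were read. SERPINB3, from chr18:63661894-63662143 on the minus strand, and SERPINB4, from chr18:63644257-63644506 on the minus strand, are printed 5′ to 3′ with the bases that differ in capitals.
SERPINB3: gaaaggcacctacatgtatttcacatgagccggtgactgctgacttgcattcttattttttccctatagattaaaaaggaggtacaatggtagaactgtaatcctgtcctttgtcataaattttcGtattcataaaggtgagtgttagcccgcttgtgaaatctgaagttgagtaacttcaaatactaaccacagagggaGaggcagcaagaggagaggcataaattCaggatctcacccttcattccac
SERPINB4: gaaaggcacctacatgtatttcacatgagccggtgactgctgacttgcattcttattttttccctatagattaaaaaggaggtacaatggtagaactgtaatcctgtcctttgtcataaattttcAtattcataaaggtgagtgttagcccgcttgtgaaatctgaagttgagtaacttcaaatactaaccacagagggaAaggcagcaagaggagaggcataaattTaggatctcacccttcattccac
These windows were the same at 247 of 250 bases (98.8%). With 1 window per gene, compared position by position without alignment, the next closest pair (SERPINB13 and SERPINB7) shared 33.6%. Counted from 1 at the 5′ end of the window, the differences from SERPINB3 to SERPINB4 were G126A, G201A and C228T. None of the motifs searched was found in either window.

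SERPINB5 (chr18:63476708-63476957, plus strand) and SERPINB2 (chr18:63887455-63887704, plus strand) had the largest differences between the lines, and SERPINB7 (chr18:63777531-63777780, plus strand, 1 of its 3 start sites) differed the other way. The RefSeq starts differ from the ends of the gene spans given below. By those spans the windows of SERPINB2 and SERPINB7 lie wholly inside the gene, and those of SERPINB5, SERPINB3 and SERPINB4 in part. Capitals mark matches on either strand to one of 3 motifs. These were the AP-1 site of the JUN and FOS factors with the letters TGANTCA, the TATA box with the letters TATAAA, and the E-box that ZEB and SNAI repressors read, with the letters CACCTG.
SERPINB5: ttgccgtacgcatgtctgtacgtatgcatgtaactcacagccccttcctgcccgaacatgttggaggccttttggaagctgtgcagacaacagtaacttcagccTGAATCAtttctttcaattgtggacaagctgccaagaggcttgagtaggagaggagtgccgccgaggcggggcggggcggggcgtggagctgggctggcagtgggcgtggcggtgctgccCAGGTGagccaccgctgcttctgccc
SERPINB2: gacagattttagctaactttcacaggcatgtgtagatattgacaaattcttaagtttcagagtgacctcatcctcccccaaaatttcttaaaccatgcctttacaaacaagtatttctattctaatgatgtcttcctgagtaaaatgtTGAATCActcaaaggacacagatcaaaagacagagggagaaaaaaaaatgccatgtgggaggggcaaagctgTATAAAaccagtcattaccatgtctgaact
SERPINB7: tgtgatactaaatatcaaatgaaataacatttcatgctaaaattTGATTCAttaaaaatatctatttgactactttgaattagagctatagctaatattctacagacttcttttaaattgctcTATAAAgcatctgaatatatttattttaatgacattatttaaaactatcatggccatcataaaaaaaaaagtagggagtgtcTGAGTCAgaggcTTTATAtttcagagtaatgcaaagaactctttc
An AP-1 match was present in 6 of the 15 windows, belonging to 5 genes (SERPINB2, SERPINB5, SERPINB7, SERPINB8 and SERPINB13), against 6.57% of all 35116 promoter windows of that length. Both SERPINB5, high in 5637 with a hairpin against LNMAT1, and SERPINB7, lower there than in UM-UC-3 with the same hairpins, held one. The E-box was found in SERPINB5 and SERPINB13 and in 17.5% of all windows, and the TATA box in 4 member windows and 10.7% of all. The GC box (letters GGGCGG) matched 6 member windows and 42.6% of all. An ETS site, spelled GGAAGT, matched 1 member window and 19.5% of all. These are matches of letters and not tested sites.

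The 5637 sh-LNMAT1 libraries were compared with the UM-UC-3 sh-LNMAT1 libraries, 2 against 2, which asks how the lines differ with the same hairpins in place and does not use either control. SERPINB5, SERPINB2, SERPINB1 and SERPINB3 were higher in 5637, and SERPINB7 and SERPINB6 were lower. Of the 7 members that passed a mean of 1 FPKM, 4 were called higher and 2 lower (limma, Benjamini-Hochberg adjusted p under 0.05), against 20.1% and 18.4% of the 12844 genes tested. SERPINB5, SERPINB1, SERPINB2 and SERPINB3 passed through the 5637 libraries alone, so their direction was set in advance. Their 4 calls, set against the share of all genes, are no test of that direction. SERPINB4, SERPINB9 and SERPINB13 did not pass and were not tested. In bulk RNA, fewer cells expressing a gene and less RNA per cell cannot be told apart.

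**Figure D1:**
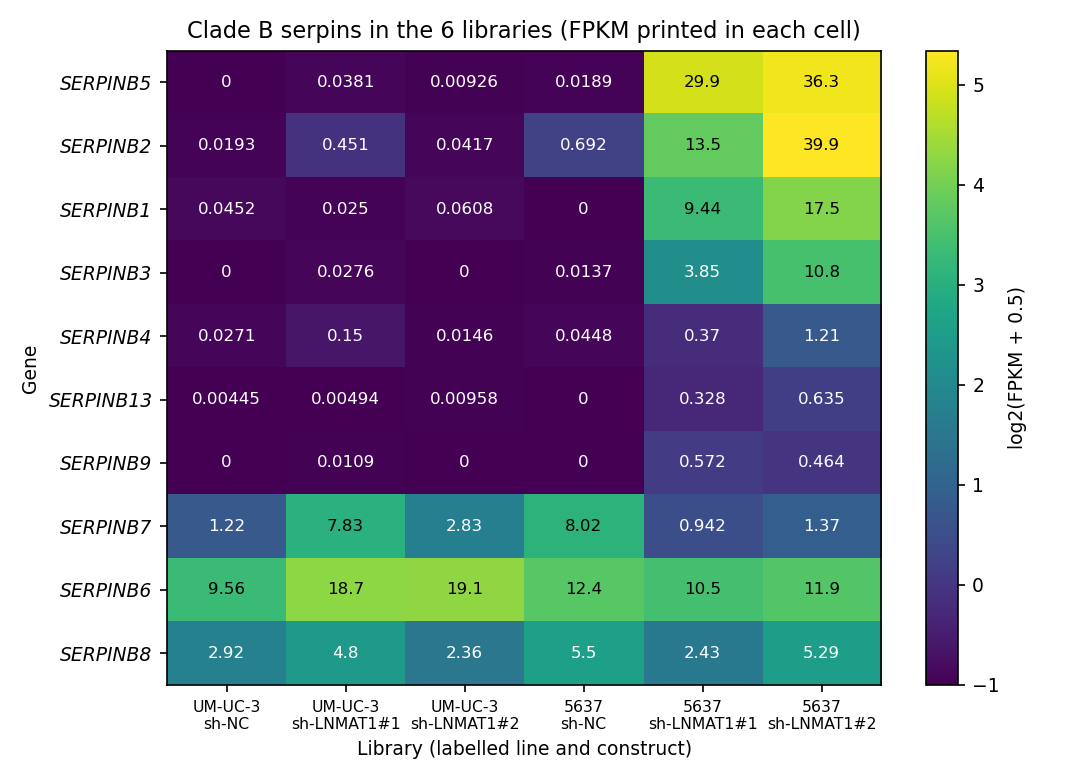
FPKM of the 10 clade B serpins (rows) in the 6 libraries (columns), with the value in each cell and colour giving log2(FPKM + 0.5). The first 7 rows are high or present in the 5637 sh-LNMAT1 columns, where SERPINB5 reached 29.9 and 36.3, and at most 0.692 in every other column.

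SERPINB5 (ENSG00000206075; chromosome 18, 63476761 to 63505085 of GRCh38) encodes maspin, a member that does not inhibit proteases and is known as a tumour suppressor of epithelium. In UM-UC-3 it was 0 with the control and 0.0381 and 0.00926 FPKM with the first and second hairpin, and in 5637 it was 0.0189 FPKM in the library labelled as control and 29.9 and 36.3 FPKM with the hairpins. Values of later genes follow this order. The last pair stood far above the other 4, which held 0 to 4 fragments against 2932 and 3310. The difference between lines was 6.0 on the log2 scale (SE 0.21, limma adjusted p = 0.000173), 35th of 12844 genes by p. With 4 fragments in UM-UC-3 sh-LNMAT1#1, the FPKM ratio for that hairpin was 785 (95% counting interval 306 to 2883). The genes whose profile over the 6 libraries was closest to it, of 11572 searched, were EPCAM, TNS4 and S100A8, with root mean square differences of the centred log2 values of 0.0729, 0.0804 and 0.0847. EPCAM, an epithelial adhesion molecule, was at 33.8 and 35.6 FPKM in the 5637 sh-LNMAT1 libraries and at 0.0210 FPKM or less elsewhere.

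SERPINB2 (ENSG00000197632; chromosome 18, 63871692 to 63903890) encodes plasminogen activator inhibitor type 2, which inhibits urokinase. It measured 0.0193, 0.451 and 0.0417 FPKM in the UM-UC-3 libraries, 0.692 FPKM in the labelled 5637 control and 13.5 and 39.9 FPKM with the hairpins in 5637. Both 5637 sh-LNMAT1 libraries were again above the rest, but unlike SERPINB5 the gene had 42 fragments in UM-UC-3 sh-LNMAT1#1, with 65 in the library labelled 5637 sh-NC, against 2 and 4 in the other UM-UC-3 libraries. Its line difference was 5.05 on the log2 scale (SE 0.56, limma adjusted p = 0.00207). The FPKM ratio between lines was 29.9 (22.0 to 41.8, 95% counting interval) for sh-LNMAT1#1 and 959 (374 to 3521) for sh-LNMAT1#2. Of 50-base stretches of its exons, 18.2% also occur in SERPINB10, which was at 0.0615 FPKM or less.

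SERPINB1 (ENSG00000021355; chromosome 6, 2832332 to 2842006, minus strand) encodes an inhibitor of neutrophil elastase, proteinase 3 and cathepsin G. In UM-UC-3 it was at 0.0452, 0.0250 and 0.0608 FPKM. It was listed at 0 in the library labelled 5637 sh-NC and at 9.44 and 17.5 FPKM in the 5637 hairpin libraries. These libraries held 704 and 1213 fragments, against at most 5 in any other. The difference between lines was 4.62 on the log2 scale (SE 0.33, limma adjusted p = 0.000474). Closest to it in profile were CSF3, PLA2G4A and RASSF10, with root mean square differences of 0.0812, 0.116 and 0.121.

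SERPINB3 (ENSG00000057149) and SERPINB4 (ENSG00000206073; chromosome 18, 63637259 to 63644298) encode the squamous cell carcinoma antigens, inhibitors of lysosomal cysteine proteases and of chymotrypsin-like serine proteases respectively. SERPINB3 was listed at 0, 0.0276 and 0 FPKM in UM-UC-3, 0.0137 FPKM in the labelled 5637 control and 3.85 and 10.8 FPKM in 5637 with the hairpins. SERPINB4 was lower in the high libraries, at 0.370 and 1.21 FPKM there, against 0.0271, 0.150 and 0.0146 FPKM in UM-UC-3 and 0.0448 FPKM in the library labelled 5637 sh-NC. Both genes were higher in the 5637 sh-LNMAT1 libraries than in the other 4. SERPINB3 differed between lines by 3.77 on the log2 scale (SE 0.46, limma adjusted p = 0.00295), and SERPINB4 was under the filter, with 23 and 70 fragments against 10 and 1 in UM-UC-3. Of their 50-base exon stretches, 23.3% of SERPINB3 and 20.1% of SERPINB4 occur in the other gene. The table gives SERPINB3 the span 63637719 to 63661963, which runs across SERPINB4, where GENCODE 29 starts it at 63655197, so their separate levels are uncertain.

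SERPINB13 (ENSG00000197641; chromosome 18, 63586989 to 63604639), a keratinocyte inhibitor of cathepsins K and L, and SERPINB9 (ENSG00000170542; chromosome 6, 2887266 to 2903280), the granzyme B inhibitor that shields cytotoxic cells from their own granules, stayed low throughout. SERPINB13 reached 0.328 and 0.635 FPKM (62 and 112 fragments) in the 5637 sh-LNMAT1 libraries and had 0 to 2 fragments in the others. SERPINB9 was at 0.572 and 0.464 FPKM (49 and 37 fragments) there, against 1 fragment in UM-UC-3 sh-LNMAT1#1 with none elsewhere. For sh-LNMAT1#2, SERPINB9 was at least 14.6-fold higher in 5637 than in UM-UC-3, taking 3 fragments as the floor of the library at 0. In all, 7 of the 10 members were higher in both 5637 sh-LNMAT1 libraries than in each of the other 4, and 0 were lower in both. Among all genes above 0 in any library, 24.7% were higher and 19.0% were lower in the same way.

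SERPINB7 (ENSG00000166396; chromosome 18, 63752935 to 63805376), or megsin, is an inhibitor whose loss causes a palmoplantar keratosis. The UM-UC-3 libraries held it at 1.22, 7.83 and 2.83 FPKM, the library labelled 5637 sh-NC at 8.02 FPKM, and the 5637 hairpin libraries at 0.942 and 1.37 FPKM. The hairpin libraries of UM-UC-3 were above those of 5637, and UM-UC-3 sh-NC lay between the latter. It differed between lines by -1.68 on the log2 scale (SE 0.46, limma adjusted p = 0.0385). With UM-UC-3 sh-NC added to its line the difference was -1.14 (adjusted p = 0.181), and without the filter on low genes the adjusted p was 0.129. Leaving out either 5637 hairpin library also ended the call (adjusted p = 0.277 and 0.198, limma). The nearest profiles were those of EIF1B, PAPPA2 and NUP50-AS1, with root mean square differences of 0.251, 0.253 and 0.268, all larger than those of the SERPINB5 and SERPINB1 neighbours.

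SERPINB6 (ENSG00000124570; chromosome 6, 2948159 to 2972165), a widely expressed inhibitor of cathepsin G, was at 9.56, 18.7 and 19.1 FPKM in UM-UC-3, 12.4 FPKM in the labelled 5637 control and 10.5 and 11.9 FPKM with the hairpins in 5637. It was well above the floor in every library, with at least 5850 fragments. The line difference was -0.73 on the log2 scale (SE 0.19, limma adjusted p = 0.0327), and -0.41 (adjusted p = 0.345) with UM-UC-3 sh-NC added. Without either 5637 hairpin library it was not called (limma adjusted p = 0.247 and 0.173). SERPINB8 (ENSG00000166401; chromosome 18, 63969925 to 64005667), an inhibitor of furin, was at 2.92, 4.80 and 2.36 FPKM in UM-UC-3, 5.50 FPKM in the labelled 5637 control and 2.43 and 5.29 FPKM in 5637 with the hairpins. Its libraries overlapped between lines, and the difference of 0.08 (SE 0.45, limma adjusted p = 0.897) did not pass.

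**Figure D2:**
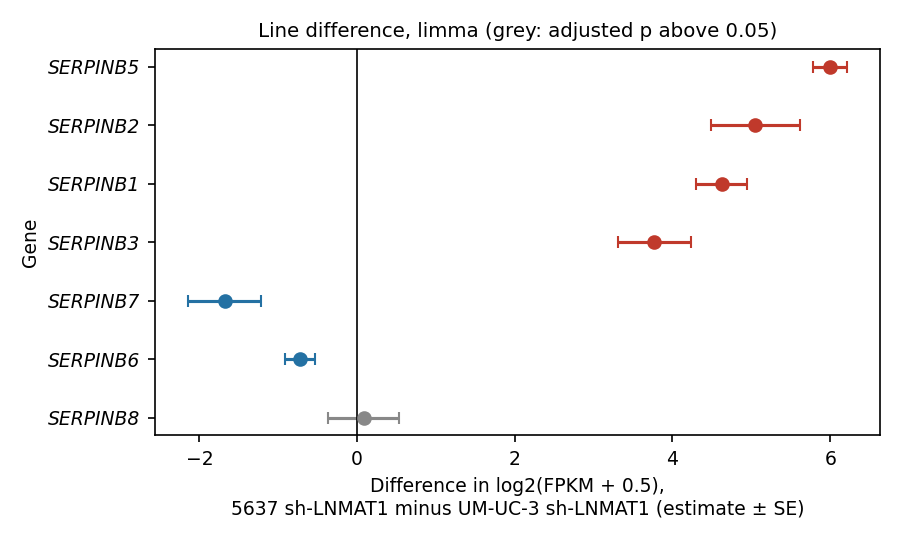
Difference in log2(FPKM + 0.5) between the 2 5637 and the 2 UM-UC-3 sh-LNMAT1 libraries for the 7 members tested (points, with SE as bars; red higher and blue lower at an adjusted p under 0.05, grey not called). SERPINB5 stood at 6.0 and SERPINB7 at -1.68.

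Levels were ordered per length. In both UM-UC-3 sh-LNMAT1 libraries SERPINB6 came first by FPKM, followed by SERPINB7 (2.83 to 7.83 FPKM) and SERPINB8 (2.36 to 4.80 FPKM), whose ranges overlap. With the hairpins in 5637, SERPINB5 (29.9 to 36.3 FPKM) and SERPINB2 (13.5 to 39.9 FPKM) overlapped at the top. SERPINB1 (9.44 to 17.5 FPKM) overlapped with SERPINB2 and also with SERPINB6 and SERPINB3. The order depends on the length used. The deposited values divide by the sum of all distinct exons, 26667 bases for SERPINB6, whose longest transcript has 5620. Rescaled to the length of the longest transcript at the same depth, SERPINB6 was at 50.04 and 56.5 in the 5637 hairpin libraries, next to SERPINB5 at 50.6 and 61.4. On that scale SERPINB2 was at 26.2 and 77.6, so it came first with sh-LNMAT1#2. The order of the libraries within a gene is not touched by this.

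Within the 18q21.33 cluster the genes did not go as a block. SERPINB5, SERPINB3 and SERPINB2 were high in 5637 with the hairpins, SERPINB7 lies between SERPINB3 and SERPINB2 and was low there, and SERPINB12, SERPINB11 and SERPINB10 were near 0 in all libraries. Next to the cluster, VPS4B was at 9.11 to 11.1 FPKM and KDSR at 5.00 to 6.85 FPKM across the 6 libraries. Of the 6 listed neighbours, 3 were tested and 1, PHLPP1, was called higher, against 20.1% of all genes, at 0.80 on the log2 scale (SE 0.20, limma adjusted p = 0.0288). At 6p25.2, SERPINB1 and SERPINB9 were higher in 5637 sh-LNMAT1 than elsewhere and SERPINB6, next to SERPINB9, was not. Of the 6 listed neighbours there, 5 were tested, with 1 higher (the pseudogene SERPINB9P1, which passed the filter through 5637 alone) and 2 lower (RIPK1 and NQO2), against 20.1% and 18.4% of all genes.

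**Figure D3:**
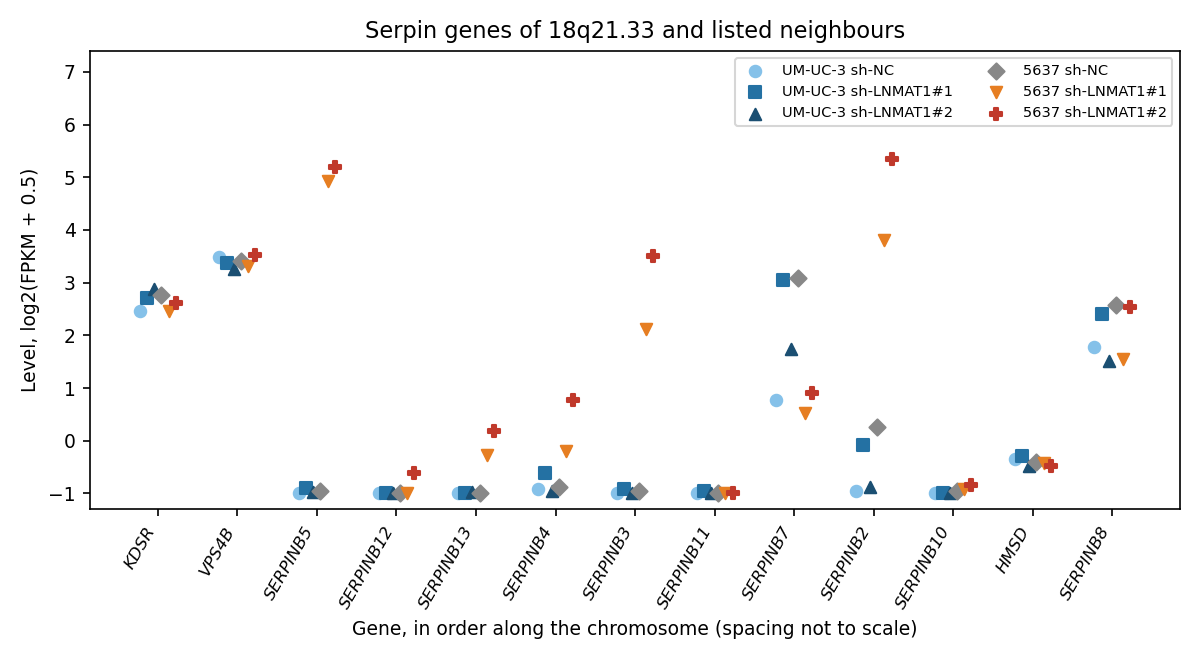
Level, as log2(FPKM + 0.5), of the serpin genes of 18q21.33 and 3 listed neighbours in chromosome order, 1 point per library. The 5637 sh-LNMAT1 points lie above the others at SERPINB5, SERPINB13, SERPINB4, SERPINB3 and SERPINB2, while those of VPS4B lie within 9.11 to 11.1 FPKM.

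The change with the knockdown was then read within UM-UC-3, where the summed epithelial markers of the control (24.8 FPKM) lay between those of the hairpin libraries (21.4 and 30.9 FPKM). The summed mesenchymal markers did not, at 366 FPKM in sh-NC against 161 and 188 FPKM, and VIM was 332 FPKM in sh-NC against 116 and 155 FPKM with the hairpins. Their part in the serpin values was not tested. Of the 3 members averaging 1 FPKM or more there, 0 were at least 2-fold higher or lower than sh-NC with both hairpins on the log2(FPKM + 0.5) scale, against 1.08% and 0.358% of 12025 genes. The changes of SERPINB7 were 2.28 and 0.95. Without the added 0.5, its FPKM ratios to sh-NC were 6.43 (95% counting interval 5.33 to 7.81) and 2.32 (1.88 to 2.88). SERPINB6 was 1.96 times (1.90 to 2.02) and 2.00 times (1.93 to 2.06) its sh-NC level, and its log2 changes were 0.93 and 0.96. SERPINB8 changes were 0.63 and -0.26, in opposite directions. SERPINB2 had 42 fragments with sh-LNMAT1#1 and 4 with sh-LNMAT1#2, against 2 in sh-NC. The remaining 6 members had at most 10 fragments or, for SERPINB3, 0.0276 FPKM in each UM-UC-3 library. Each comparison has 1 library a side, and the intervals cover counting error alone.

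In 5637, all changes rest on the library labelled sh-NC. SERPINB5, SERPINB1, SERPINB2 and SERPINB3 were at least 2-fold higher than in it with both hairpins, with log2 changes of 5.87 and 6.15, 4.31 and 5.17, 3.55 and 5.08, and 3.08 and 4.46. SERPINB7 was lower, at -2.56 and -2.19. These are 4 and 1 of the 7 members kept, against 18.5% and 12.3% of 12791 genes. The 4 higher members passed the filter through the hairpin libraries alone, with 0 to 0.692 FPKM in the library labelled sh-NC. They could therefore not have been called lower. SERPINB6 (-0.22 and -0.05) and SERPINB8 (-1.03 and -0.05) were under 2-fold with at least 1 hairpin.

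**Figure D4:**
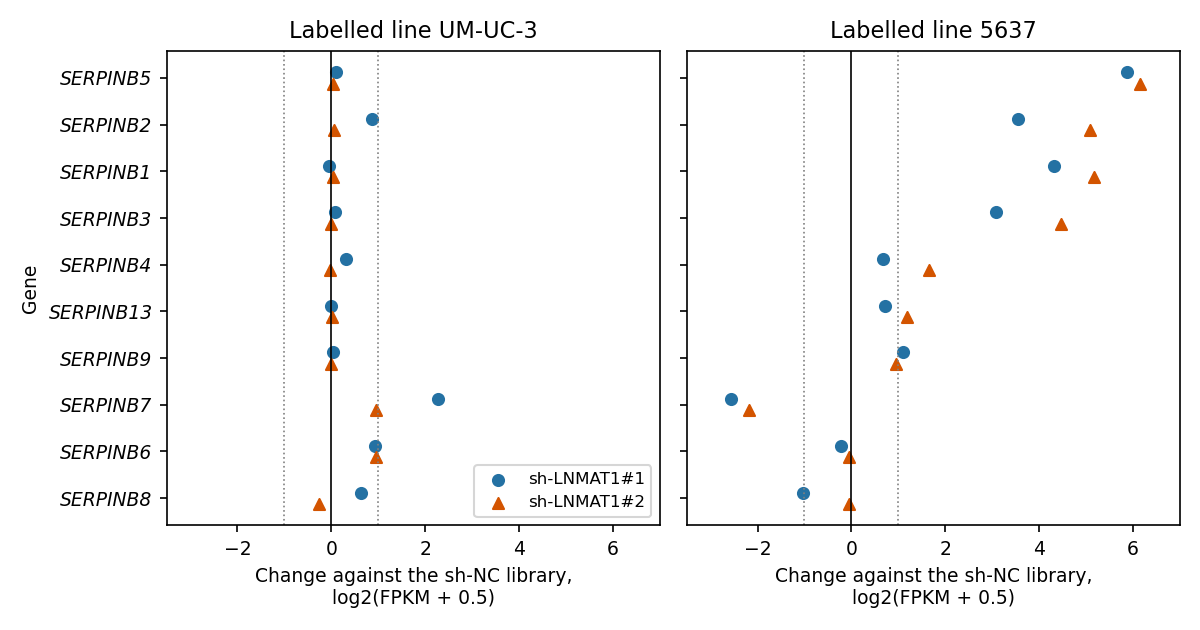
Change against the sh-NC library of the labelled line, on the log2(FPKM + 0.5) scale, for each hairpin (circles sh-LNMAT1#1, triangles sh-LNMAT1#2), with dotted lines at 2-fold. In UM-UC-3 most points sit near 0 and SERPINB7 is at 2.28 and 0.95, and in 5637 SERPINB5 is at 5.87 and 6.15.

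Pooled over both lines, with the line as a covariate, none of the 7 members tested was called, and neither was any of 12717 genes (limma, 0.0% higher and 0.0% lower, with 811 genes at an unadjusted p under 0.05). SERPINB5 had an estimate of 3.04 on the log2 scale (SE 1.25, adjusted p = 0.569), and SERPINB2 one of 2.39 (SE 0.94, adjusted p = 0.569). SERPINB2 alone of the members was under 0.05 before adjustment. Without the library labelled 5637 sh-NC, the SERPINB5 estimate was 0.07 and again nothing was called. Without UM-UC-3 sh-NC, which leaves the doubted library as the control, SERPINB5, SERPINB1, SERPINB2, SERPINB3 and SERPINB7 were called, at 6.01, 4.74, 4.32, 3.77 and -2.37, among 4025 genes. The interaction of line and knockdown was called for SERPINB5 (5.94, SE 0.37, limma adjusted p = 0.00290), SERPINB1, SERPINB3 and SERPINB7, which is 3 higher and 1 lower against 9.99% and 8.79% of genes. SERPINB5, SERPINB1 and SERPINB3 passed the filter through the 5637 hairpin libraries alone, so their direction was set in advance. Their calls, set against the share of all genes, are no test of that direction. The calls of SERPINB3 and SERPINB7 were lost when single hairpin libraries were left out (limma adjusted p from 0.0822 to 0.161). The interaction uses the library labelled 5637 sh-NC and could not be fitted without it.

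The hairpin libraries of 5637 also differed from each other. Some members differed by little, such as SERPINB6, at 1.13 times with sh-LNMAT1#2 over sh-LNMAT1#1 (1.09 to 1.17). The share of all genes higher with sh-LNMAT1#2 was not counted, so the number of members higher is not read as a result. The median log2 change over all genes kept was -0.02. SERPINB2 was 2.96 times higher (95% counting interval 2.77 to 3.17), SERPINB4 3.27 times (2.01 to 5.49), SERPINB3 2.81 times, SERPINB13 1.94 times (1.41 to 2.69) and SERPINB1 1.85 times (1.68 to 2.03). SERPINB5 differed less, at 1.21 times (1.15 to 1.27), and SERPINB9 was 0.811 times its sh-LNMAT1#1 level, with an interval of 0.514 to 1.27. On the log2(FPKM + 0.5) scale, SERPINB2 and SERPINB3 passed 2-fold, which is 2 of 7 members kept against 1.24% of 12472 genes, and the median of the members kept was 0.85 against -0.02 for all genes. With 1 library for each hairpin, the hairpin, the culture and the library cannot be told apart.

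**Figure D5:**
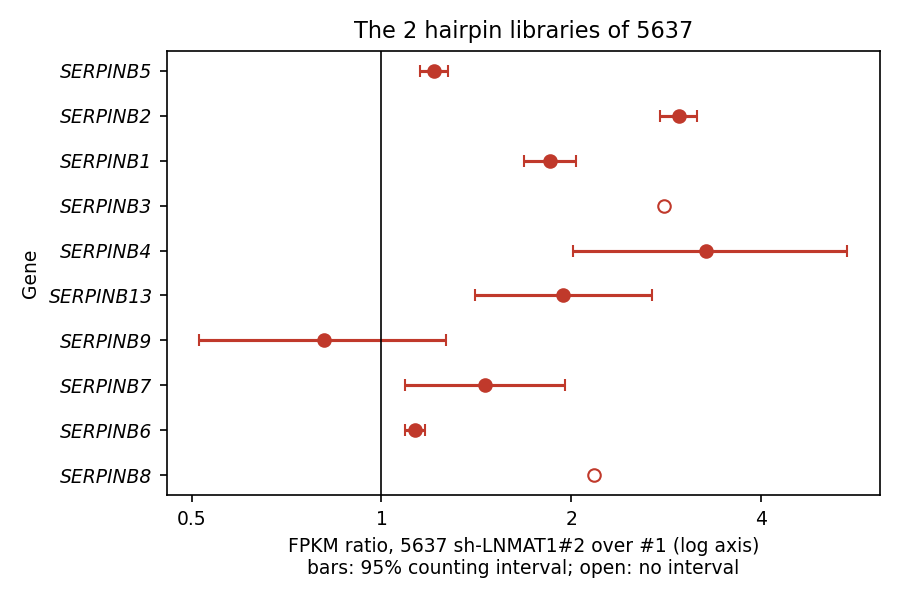
FPKM in 5637 sh-LNMAT1#2 over that in 5637 sh-LNMAT1#1 for the 10 members, on a log axis, with 95% counting intervals (open points have none). SERPINB2, SERPINB3, SERPINB4 and SERPINB8 lie above 2, and SERPINB9 lies below 1.

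Genes of squamous differentiation were taken as a list of 28. In the comparison of lines 13 were tested and 11 were higher and 0 lower in 5637, against 20.1% and 18.4% of all genes. Of the 13, 10 passed the filter through the 5637 libraries alone, so their direction was set in advance. KRT17 and KRT6A, keratins of activated and hyperproliferative epithelium, were at 52.1 and 89.4 FPKM and at 26.3 and 54.4 FPKM with the hairpins in 5637, and at most 0.0864 FPKM elsewhere. KRT10 (0.03, limma adjusted p = 0.958) and EMP1 (-1.72, limma adjusted p = 0.221) were not called. Genes of the cornified layer were uneven. IVL was at 3.97 and 8.41 FPKM and FLG at 2.25 and 2.01 FPKM in the 5637 hairpin libraries, with line differences of 3.57 and 1.38 (limma adjusted p = 0.00152 and 0.00525), while LOR, KRT1 and CRNN were at or near 0 in all libraries. These 5 were also named after their values were seen. Between the 5637 hairpin libraries, 5 of the 15 kept were at least 2-fold higher with sh-LNMAT1#2 and 0 lower, against 1.24% and 0.93% of all genes. The 5, likewise named after their values were seen, were SPRR1B, SPRR2A, SPRR2D, KRT6A and KRT6B. SPRR2A, a cornified envelope protein, went from 3.25 to 46.1 FPKM.

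Other protease inhibitors of epithelium were counted beside the serpins. Of 12 listed, 9 were tested between the lines, and 7 were higher and 1 lower in 5637, against 20.1% and 18.4% of all genes, with 4 of the 9 passing the filter through 5637 alone. SLPI, a secreted inhibitor of neutrophil elastase, was at 94.1 and 259 FPKM with the hairpins in 5637 and at most 0.0753 FPKM elsewhere, and CSTB, a cystatin, was at 74.8 and 121 FPKM against 13.3 to 20.1 FPKM. TIMP1 was lower in 5637 (-1.65, SE 0.40, limma adjusted p = 0.0265), and CST3 was not called. Among serpins of other clades, SERPINE2, an inhibitor of thrombin and urokinase, was higher in 5637 by 3.54 on the log2 scale (SE 0.27, limma adjusted p = 0.000585), and the collagen chaperone SERPINH1 by 5.13 (SE 0.22, limma adjusted p = 0.000180). Both passed the filter through 5637 alone.

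Proteases that clade B serpins are known to inhibit were taken as a list of 22, of which 12 were tested between the lines, with 7 higher and 4 lower in 5637, against 20.1% and 18.4% of all genes, and 5 of the 12 passed the filter through 5637 alone. Urokinase (PLAU), the target of SERPINB2, was at 549, 208 and 317 FPKM in UM-UC-3, 140 FPKM in the labelled 5637 control and 84.5 and 131 FPKM in 5637 with the hairpins, and its line difference was -1.28 (SE 0.32, limma adjusted p = 0.0286). Lysosomal cysteine proteases went both ways. CTSB and CTSL were lower in 5637, at -1.53 (SE 0.45, adjusted p = 0.0448) and -1.17 (SE 0.29, adjusted p = 0.0273, limma). CTSH, CTSS, CTSV and CTSK, named after their values were seen, were called higher, at 5.40, 2.70, 2.46 and 2.30. Each of these higher genes passed the filter through 5637 alone, so its direction was set in advance. FURIN, the target of SERPINB8, was higher, at 37.9 and 36.3 FPKM against 4.70 to 6.03 FPKM elsewhere. The granzyme and neutrophil proteases met by SERPINB9, SERPINB1 and SERPINB6 (GZMB, GZMH, GZMM, ELANE, PRTN3, CTSG) were at no more than 0.171 FPKM in any library.

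Epithelial transcription factors and line markers were counted in the same comparison. Of 13 factors, 11 were tested and 9 were higher and 1 (KLF4, -0.89) lower in 5637, against 20.1% and 18.4% of all genes, and 8 of the 11 passed the filter through 5637 alone. KLF5 was at 46.4 and 67.7 FPKM and EHF at 28.5 and 43.8 FPKM with the hairpins and neither was above 1.32 FPKM elsewhere, while PITX1 was not called (0.19, limma adjusted p = 0.773). All 10 epithelial markers tested were higher in 5637, against 20.1% of all genes. Of these, 8 passed the filter through 5637 alone, so their direction was set in advance. Of 7 urothelial markers, 3 were tested (PPARG, FOXA1 and GATA3) and were higher, against 20.1% of all genes, and 4 were under the filter. FOXA1 and GATA3 passed through 5637 alone, so their direction was set in advance. Of 7 mesenchymal markers, 6 were tested, with 3 lower in 5637 (VIM, CDH2 and ZEB1), 2 higher (FN1 and SNAI2) and TWIST1 not called. The shares of all genes were 18.4% lower and 20.1% higher, and ZEB1 passed through UM-UC-3 alone. ZEB1, a repressor of epithelial genes, was at 8.67 to 12.7 FPKM in UM-UC-3, 12.6 FPKM in the labelled 5637 control and 0.0264 and 0.00774 FPKM in 5637 with the hairpins. The part of these differences in the serpin values was not tested.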

How the data were processed

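RNA of UM-UC-3 and 5637 cells was sequenced in 6 libraries, assigned to groups by their titles. A single table of 50869 rows was used, in which the deposited unit is FPKM, computed by the authors, and 1 empty row was dropped. The submitters' processing notes name HISAT2 and hg38, and the counting program and annotation are not given in the sources used here. Of the identifiers, 50110 were found in GENCODE 29 and 47448 had the identical position. Whether libraries came from separate cultures is not stated.

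Depth was found from 14637 single-exon genes, where at least 99.95% of low values were whole fragments within 0.02. With the summed length of distinct exons, 95.8% of multi-exon values were whole, against 41.2% with the longest transcript, so fragments per member were recovered, except for SERPINB3 and SERPINB8, whose positions differ from GENCODE. They served for intervals and floors (3 fragments), which cover counting error only. No count-based test was run on the FPKM.

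Differences are of log2(FPKM + 0.5), a scale that shrinks the changes of weakly expressed genes, and genes averaging under 1 FPKM over the libraries compared were dropped. Limma 3.58.1 (R 4.3.3; lmFit, eBayes with a trend) was used with Benjamini-Hochberg adjustment over all genes tested, and calls were made at 0.05. It was also run on simulated data, with the spread between libraries capped below that of SERPINB5 in the pooled fit. That run therefore does not show how reliable the calls in these data are. Python 3.11.15 with numpy 2.4.6, pandas 2.3.3 and scipy 1.17.1 gave exact binomial intervals (95%) and profile distances. Each hairpin was compared with its sh-NC without a test. Promoter sequences came from RefSeq.

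Named were all members, up to 4 genes per list by highest mean FPKM, and for SERPINB5, SERPINB1 and SERPINB7 the 3 closest profiles among genes with a symbol. A listed gene named outside this rule was chosen after its values were seen. The members, lists and tests were chosen with earlier results of these data known. SERPINA3, listed in more than 1 row, was not used, and some listed genes are not reported here. Alternatives were other scalings, pseudocounts, filters and thresholds, no trend, no line covariate, other sets of libraries, a block by hairpin and leaving out each library.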

Additional observations from a re-analysis of the deposited data

Results flagged for a closer look

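The knockdown estimate differed between the lines for 4 members by the interaction term of the limma model. The estimate in 5637 minus that in UM-UC-3 was 5.94 on the log2 scale for SERPINB5 (adjusted p = 0.00290), 4.75 for SERPINB1 (adjusted p = 0.00627) and 3.73 for SERPINB3 (adjusted p = 0.0326). It was -3.99 for SERPINB7 (limma adjusted p = 0.0282). SERPINB7 was above sh-NC in both UM-UC-3 hairpin libraries and below the labelled control in both of 5637. All 4 rest on the library labelled 5637 sh-NC, whose epithelial markers summed to 26.9 FPKM against 744 and 982 FPKM in the other 5637 libraries. SERPINB5, SERPINB1 and SERPINB3 passed the filter through the 5637 hairpin libraries alone, so the direction of their estimates was set in advance. No group has more than 1 library, so none could be searched for an outlying sample.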

How the results depend on the processing

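In the comparison of the sh-LNMAT1 libraries between lines, 4949 genes were called. This became 2325 with a filter of 5 FPKM and 2 with all libraries by their labelled line, where the adjusted p of SERPINB5 was 0.335. Without 1 library it was 1192 to 5573 (1192 without 5637 sh-LNMAT1#1 and 1221 without sh-LNMAT1#2, where SERPINB6 and SERPINB7 were no longer called and the lone library is assumed to vary like the others). With a replicate block by hairpin number 5250 genes were called and the 6 calls among the members held. The numbers share a hairpin and no culture, and deviations of the same hairpin correlated at 0.0275 between the lines across genes. No paired analysis was possible for the other results because each line has 1 library per construct. SERPINB8, at 0.08, ran from -0.41 to 0.57 without 1 library, and was negative without UM-UC-3 sh-LNMAT1#2 (-0.36) and 5637 sh-LNMAT1#2.

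Pooled over the lines, 0 genes were called, and without 1 library 0 to 4025 were (4025 without UM-UC-3 sh-NC). Over these, SERPINB1 ran from -0.0068 to 4.74, SERPINB7 from -2.37 to 1.62, SERPINB8 from -0.54 to 0.19 and SERPINB6 from -0.14 to 0.95. The end without the library labelled 5637 sh-NC was the lower one for SERPINB1 and the upper one for the others, and the opposite end was without UM-UC-3 sh-NC. SERPINB8 was also positive without 5637 sh-LNMAT1#1 (0.08). The interaction called 2388 genes, 883 with a filter of 5 FPKM and 498 to 4105 without 1 sh-LNMAT1 library (498 without 5637 sh-LNMAT1#1, 501 without 5637 sh-LNMAT1#2 and 4105 without UM-UC-3 sh-LNMAT1#2). SERPINB3 lost its interaction call without either UM-UC-3 hairpin library (adjusted p = 0.0889 and 0.0822), with a pseudocount of 1 (0.0505) and with no filter (0.158), and SERPINB7 without either 5637 hairpin library (0.161 and 0.135) and with no filter (0.140). SERPINB1 lost it with no filter (0.0586), and SERPINB2 (0.0503) gained one with a pseudocount of 1 (0.0472) or without 5637 sh-LNMAT1#1 (0.0452).

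In UM-UC-3, 0 members were at least 2-fold higher with both hairpins. This was 1 (SERPINB7) with a pseudocount of 0.1 or sh-LNMAT1#1 alone, and 2 (with SERPINB6) at 1.5-fold. In 5637, 1 member was lower, 0 with a filter of 5 FPKM or at 5-fold and 2 with sh-LNMAT1#1 alone. The causes were not tested. Depth limits SERPINB4, SERPINB9 and SERPINB13, at 112 fragments or fewer. The length of the longest transcript was tried after seeing the data.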
